A study of Mus musculus with 21 samples.

Results

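The genes described here are 9 genes that developing B lymphocytes switch on, Ebf1, Pax5, Rag1, Vpreb1, Igll1, Vpreb3, Cd79a, Cd79b and Blnk, followed in RNA from newborn mouse tissue. They were chosen by symbol as early B-lineage genes, and all 9 were found among the 24391 gene symbols of the count tables. Around birth the mouse liver is still a blood-forming organ, and B-cell precursors arise there before the bone marrow takes over. Ebf1 and Pax5 are transcription factors that commit a precursor to the B lineage, and Rag1 encodes the recombinase that cuts immunoglobulin genes for rearrangement. Vpreb1 and Igll1 encode the 2 parts of the surrogate light chain, which pairs with the first rearranged heavy chain to form the pre-B-cell receptor, and Vpreb3 encodes a related chaperone-like protein. Cd79a and Cd79b encode the signalling chains of that receptor, and Blnk encodes the adaptor that couples it to downstream enzymes. Growth of these precursors depends on interleukin-7, whose receptor signals through the kinases JAK1 and JAK3.

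The libraries came from brain, liver and skin of P0 newborn C57BL/6 mice, 2 Jak1 KI mice and 5 wild-type (WT) mice, which gives 21 libraries. The KI mice carried 1 edited copy of Jak1, written Jak1 H595D/+;I596I/+;Y597Y/+, of which H595D changes the protein and the other substitutions are silent. No agent was given to any group. According to the paper's text, heterozygous KI mice were obtained as offspring of a mosaic male crossed to WT mice. Sex and litter are not given in the labels, and the counts per gene hold no allele, so the genotype labels could not be checked. Each liver library held 30105720 to 38388133 reads counted on genes, and the 21 libraries held 26549326 to 38388133. The labels do not say that the mice were of separate litters, so the p-values measure the spread between these mice only.

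Values are given as counts per 1000000 reads counted on genes (CPM), and as CPM per kilobase of exon where 1 gene is set beside another. Alb, which marks hepatocytes, stood at 103338 ± 6121 CPM in the WT livers (SD, n = 5) and was the marker check of the tissue. The 9 genes lie on 7 chromosomes of the NCBIM37 (mm9) assembly. Ebf1 is at chr11:44430819-44821593 on the plus strand and Pax5 at chr4:44544017-44724318 on the minus strand. Rag1 is at chr2:101478439-101489658 on the minus strand, and its exons overlap those of B230118H07Rik. Vpreb1 is at chr16:16868495-16870936 and Igll1 at chr16:16860764-16864078, neighbours on the minus strand, and exons of Vpreb1 overlap those of Top3b on the opposite strand. Vpreb3 is at chr10:75405802-75412402 on the plus strand, Cd79a at chr7:25682400-25687216 on the plus strand and Cd79b at chr11:106172655-106176076 on the minus strand. Blnk is at chr19:41003417-41069025 on the minus strand. Reads that fell on both Rag1 and B230118H07Rik, or on both Vpreb1 and Top3b, could not be assigned to 1 gene, and Vpreb1 has a near copy, Vpreb2, so that the values of Rag1 and Vpreb1 are the least certain of the 9.

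The promoters of 4 genes are shown because they drive the receptor parts whose RNA is compared below, and because Vpreb1 and Igll1, which work as a pair, did not follow Vpreb3 and Cd79a across the livers. Each run holds the 250 bases before the annotated start, read 5′ to 3′ in the direction of transcription, from RefSeq on GRCm38.p6. Capitals mark a match to CAGGTG, the E-box form bound by E2A proteins, or to ATGCAAAT, the octamer bound by Oct factors, on either strand. The Cd79a window is chr7:24897247-24897496 (plus strand), the Vpreb1 window chr16:16869256-16869505 (minus), the Igll1 window chr16:16863986-16864235 (minus) and the Vpreb3 window chr10:75948050-75948299 (plus).
Cd79a: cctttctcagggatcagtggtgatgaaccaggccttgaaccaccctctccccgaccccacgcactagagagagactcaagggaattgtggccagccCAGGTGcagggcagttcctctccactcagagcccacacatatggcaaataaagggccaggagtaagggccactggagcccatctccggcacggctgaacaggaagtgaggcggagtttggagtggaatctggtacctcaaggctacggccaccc
Vpreb1: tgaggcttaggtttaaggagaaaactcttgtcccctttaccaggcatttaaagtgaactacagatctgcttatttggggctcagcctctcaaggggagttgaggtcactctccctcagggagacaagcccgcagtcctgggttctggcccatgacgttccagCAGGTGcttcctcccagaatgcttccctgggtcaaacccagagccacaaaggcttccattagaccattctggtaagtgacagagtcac
Igll1: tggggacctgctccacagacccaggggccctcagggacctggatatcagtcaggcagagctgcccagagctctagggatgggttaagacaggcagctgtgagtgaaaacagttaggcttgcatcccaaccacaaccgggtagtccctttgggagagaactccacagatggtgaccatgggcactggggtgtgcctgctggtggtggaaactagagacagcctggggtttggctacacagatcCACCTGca
Vpreb3: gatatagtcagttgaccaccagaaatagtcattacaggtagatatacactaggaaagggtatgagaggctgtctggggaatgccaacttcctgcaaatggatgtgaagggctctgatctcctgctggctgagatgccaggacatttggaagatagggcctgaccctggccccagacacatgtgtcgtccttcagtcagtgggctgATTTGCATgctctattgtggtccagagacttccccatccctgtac

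The E-box letters began 154 bases before the start of Cd79a, 88 before that of Vpreb1 and 8 before that of Igll1, where they read CACCTG on the strand shown. In Vpreb3 the octamer began 45 bases before the start and reads ATTTGCAT on the strand shown. Of the 8 genes with a window in the RefSeq table, 5 held CAGGTG within the 300 bases searched (250 before to 50 after the start): Cd79a, Vpreb1, Igll1, Rag1 and Blnk. CAGGTG was found in 20.2% of all 32851 windows. ATGCAAAT was found in Vpreb3 and Blnk, 2 of 8, and in 1.74% of all windows. The palindrome bound by EBF1 (TCCC, any 2 bases, GGGA) was found in 0 of 8 and in 0.904% of all windows. The motifs did not overlap each other, and a match is a match of letters only.

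All 9 genes were present in every liver library, with 105 to 1482 reads each. In the WT livers, per kilobase of exon, Cd79b stood highest at 17.8 ± 3.06 CPM per kb (SD, n = 5) and Vpreb3 next at 16.4 ± 2.87. Cd79a followed at 9.21 ± 1.53 and Igll1 at 5.78 ± 0.597, and below them were Vpreb1 at 3.79 ± 0.530 and Rag1 at 3.17 ± 0.627. The lowest levels per kilobase were those of Pax5 at 1.27 ± 0.400, Ebf1 at 1.17 ± 0.244 and Blnk at 1.11 ± 0.292. Within this order the ranges over the 5 mice overlapped between Cd79b and Vpreb3, between Vpreb1 and Rag1, and among the last 3 genes, and between no other neighbours.

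The same genes were then read in the brain and skin of the WT mice, tissues in which B cells are not formed. The paper's methods report lower RNA integrity for the skin samples than for the liver samples. Its effect on comparisons of liver with skin was not tested. In the test of liver against brain, 84.5% of the 16220 genes tested were called at an adjusted p under 0.1 (edgeR quasi-likelihood test, Benjamini-Hochberg), 39.9% as higher in liver and 44.6% as lower, so a call alone says little about any gene. For liver against skin, 77.9% of 15842 genes were called, 36.6% as higher and 41.3% as lower. Of the 9 genes, 8 were called higher in liver in each comparison, and Ebf1 was called lower in each. The 5 WT livers lay above all WT brains for 7 of the 9, where 23.4% of all genes did so, and above all WT skins for 8 of the 9, where 15.3% did so. The median log2 difference of the 9 was 6.20 against brain, where that of all genes was -0.10, and 5.84 against skin, where that of all genes was -0.06.

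Cd79a gave 13.4 ± 2.23 CPM in WT liver, 0.112 ± 0.0587 in brain and 0.374 ± 0.105 in skin (SD, n = 5). This was a log2 difference of 7.60 ± 0.31 (SE) against brain and 5.84 ± 0.24 against skin (edgeR adjusted p of 2.46e-10 and 2.99e-09). Cd79b, at 25.5 ± 4.38 CPM in liver, had 0.523 ± 0.198 in brain and 3.28 ± 0.775 in skin. Its reads in skin numbered 77 to 121 per WT library, so that it was the only receptor chain gene with a clear level outside the liver. For Vpreb3 the WT levels were 14.1 ± 2.47 CPM in liver, 0.315 ± 0.0722 in brain and 0.219 ± 0.103 in skin. Vpreb1 fell from 4.22 ± 0.590 CPM in liver to 0.0446 ± 0.0338 in brain and 0.148 ± 0.0443 in skin, with no more than 6 reads in any library outside the liver.

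Among the 9, Igll1 had the largest difference between liver and brain in WT mice. It gave 2108 reads over the 5 WT livers and 1 read over the 5 WT brains, a CPM ratio of 1940 with an exact 95% counting interval of 348 to 76654. In skin it gave 0 to 6 reads per WT library, against 348 to 474 in liver. Rag1 stood at 20.9 ± 4.14 CPM in WT liver, 0.655 ± 0.310 in brain and 0.301 ± 0.206 in skin, log2 differences of 5.73 ± 0.32 and 6.78 ± 0.39. The intervals on ratios of reads cover counting error only, since reads made by PCR are not independent molecules.

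Of the transcription factors, Ebf1 did not follow the receptor genes across tissues, and Pax5 followed them against skin but overlapped between liver and brain. Pax5 was at 4.33 ± 1.37 CPM in WT liver and 0.0202 ± 0.0298 in skin, where 3 reads were counted in 5 libraries, a ratio of 227 with an exact 95% counting interval of 77.5 to 1105. In brain, where Pax5 is also known to act at the midbrain and hindbrain boundary, it ranged from 0.490 to 4.46 CPM and overlapped the WT liver range of 3.18 to 6.66. Its log2 difference of liver against brain was 2.02 ± 0.52 (edgeR adjusted p = 0.0031). Ebf1 was lowest in the liver, at 11.4 ± 2.38 CPM, against 62.0 ± 34.6 in brain and 99.0 ± 9.05 in skin. Both other tissues use Ebf1 in cells outside the B lineage, neurons and fat or stromal precursors among them. The log2 difference of Ebf1 was -1.69 ± 0.35 against brain and -2.42 ± 0.13 against skin, and the 5 WT livers lay below all WT brains, as for 53.3% of all genes, and below all WT skins, as for 57.9%. Blnk gave 6.66 ± 1.75 CPM in liver, 0.743 ± 0.180 in brain and 3.85 ± 0.996 in skin, the smallest differences among the genes called higher in liver against skin, at a log2 difference of 1.49 ± 0.23.

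**Figure D1:**
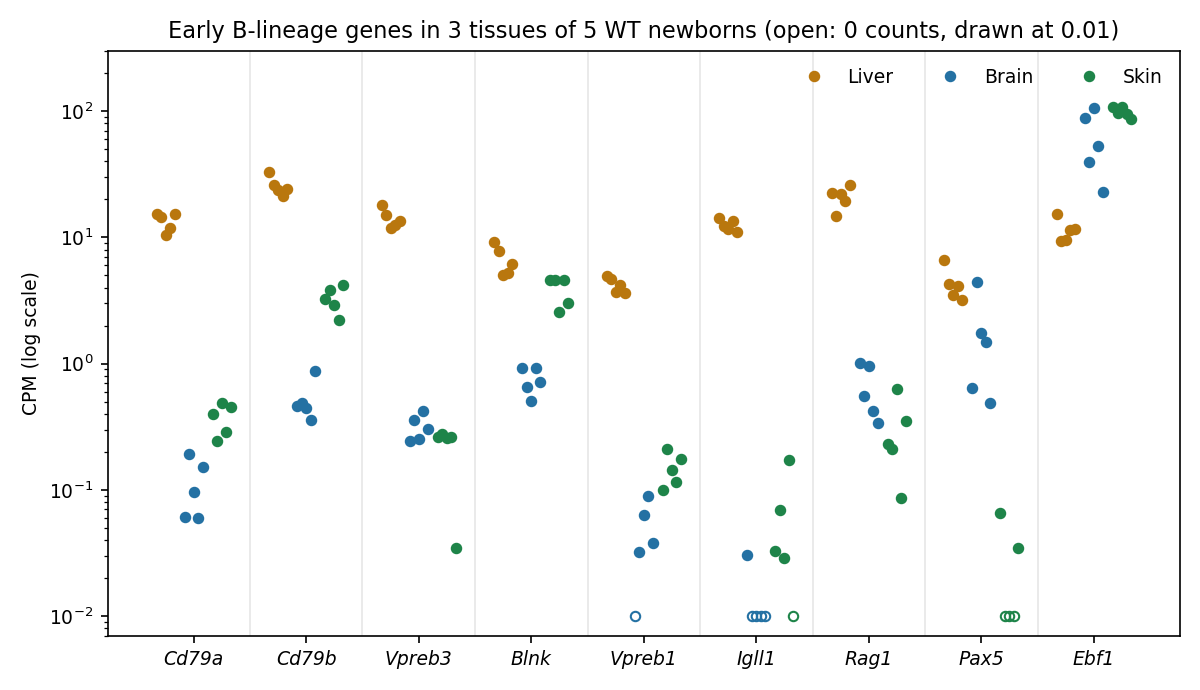
CPM of each of the 9 genes (log axis) in the liver, brain and skin libraries of the 5 WT mice, 1 point per library, with open points for libraries with 0 reads, drawn at 0.01. Liver points of 7 genes lie above all brain and skin points, those of Pax5 reach down into its brain range, and those of Ebf1 lie below both other tissues.

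In the liver, KI was compared with WT, 2 mice against 5. Vpreb3, Cd79b and Cd79a were higher in the KI livers at an adjusted p under 0.1, and 0 of the 9 genes were called lower. Among all 14966 genes tested, 5.57% were called, 3.89% as higher and 1.68% as lower. At an unadjusted p under 0.05, 5 of the 9 were higher, where 9.49% of all genes were. Of the 9 genes, 8 had a log2 fold change above 0, and their median was 0.47 against -0.02 for all genes. The summed level of the 9 was 167 and 154 CPM in the KI livers and 101 to 139 CPM (median 108) in the WT livers. In RNA of whole liver, more cells of a type and more RNA per cell cannot be told apart.

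Vpreb3 had the largest difference. It was at 26.7 and 24.7 CPM in KI 1 and KI 2, and at 18.0, 14.9, 11.8, 12.5 and 13.3 CPM in WT 1 to WT 5. No WT liver reached either KI value, for a log2 fold change of 0.85 ± 0.14 (SE, edgeR adjusted p = 0.020). Cd79b measured 39.6 and 42.8 CPM in the KI livers and 32.7, 25.8, 23.9, 21.1 and 24.1 CPM in the WT livers, again without overlap. Its log2 fold change was 0.68 ± 0.13 (edgeR adjusted p = 0.034). Cd79a was at 21.3 and 20.5 CPM in the KI livers and at 15.4, 14.4, 10.4, 11.8 and 15.2 CPM in the WT livers. No WT liver reached either KI value, and the log2 fold change was 0.62 ± 0.16 (edgeR adjusted p = 0.076).

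Blnk, the adaptor, gave 11.1 and 9.79 CPM in the KI livers and 9.10, 7.81, 5.02, 5.24 and 6.13 CPM in the WT livers. The groups did not overlap, but the spread of the WT livers was wide and the log2 fold change of 0.64 ± 0.22 did not pass (edgeR adjusted p = 0.17). Groups without overlap, with each KI value above each WT value, were seen for 4 of the 9 genes, and for 13.8% of all genes tested.

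The surrogate light chain genes split the KI livers. Vpreb1 was at 7.71 CPM in KI 1 and 4.07 in KI 2, against 4.94, 4.69, 3.65, 4.19 and 3.64 CPM in WT 1 to WT 5. Igll1 was at 19.9 CPM in KI 1 and 11.2 in KI 2, against 14.2, 12.3, 11.6, 13.5 and 11.1 CPM in the WT livers. For both genes KI 1 was the highest of the 7 livers, and KI 2 lay within the WT range. The log2 fold changes were 0.47 ± 0.25 for Vpreb1 and 0.30 ± 0.20 for Igll1 (edgeR adjusted p of 0.36 and 0.48), and without KI 1 they were -0.06 and -0.17.

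Rag1 was the 1 gene of the 9 with a lower mean in the KI livers. It gave 16.6 and 21.6 CPM in the KI livers and 22.6, 14.7, 21.9, 19.5 and 25.9 CPM in the WT livers. Both KI values lay inside the WT range, and the log2 fold change was -0.15 ± 0.21 (edgeR adjusted p = 0.76). Pax5 was at 6.99 and 4.80 CPM in the KI livers and 6.66, 4.25, 3.49, 4.09 and 3.18 CPM in the WT livers. Ebf1 was at 16.8 and 14.4 CPM in the KI livers and 15.2, 9.30, 9.43, 11.4 and 11.7 CPM in the WT livers. For both transcription factors KI 1 was highest and WT 1 second, so the groups overlapped. Each had a log2 fold change of 0.44, with a standard error of 0.28 for Pax5 and 0.18 for Ebf1 (edgeR adjusted p of 0.45 and 0.25).

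**Figure D2:**
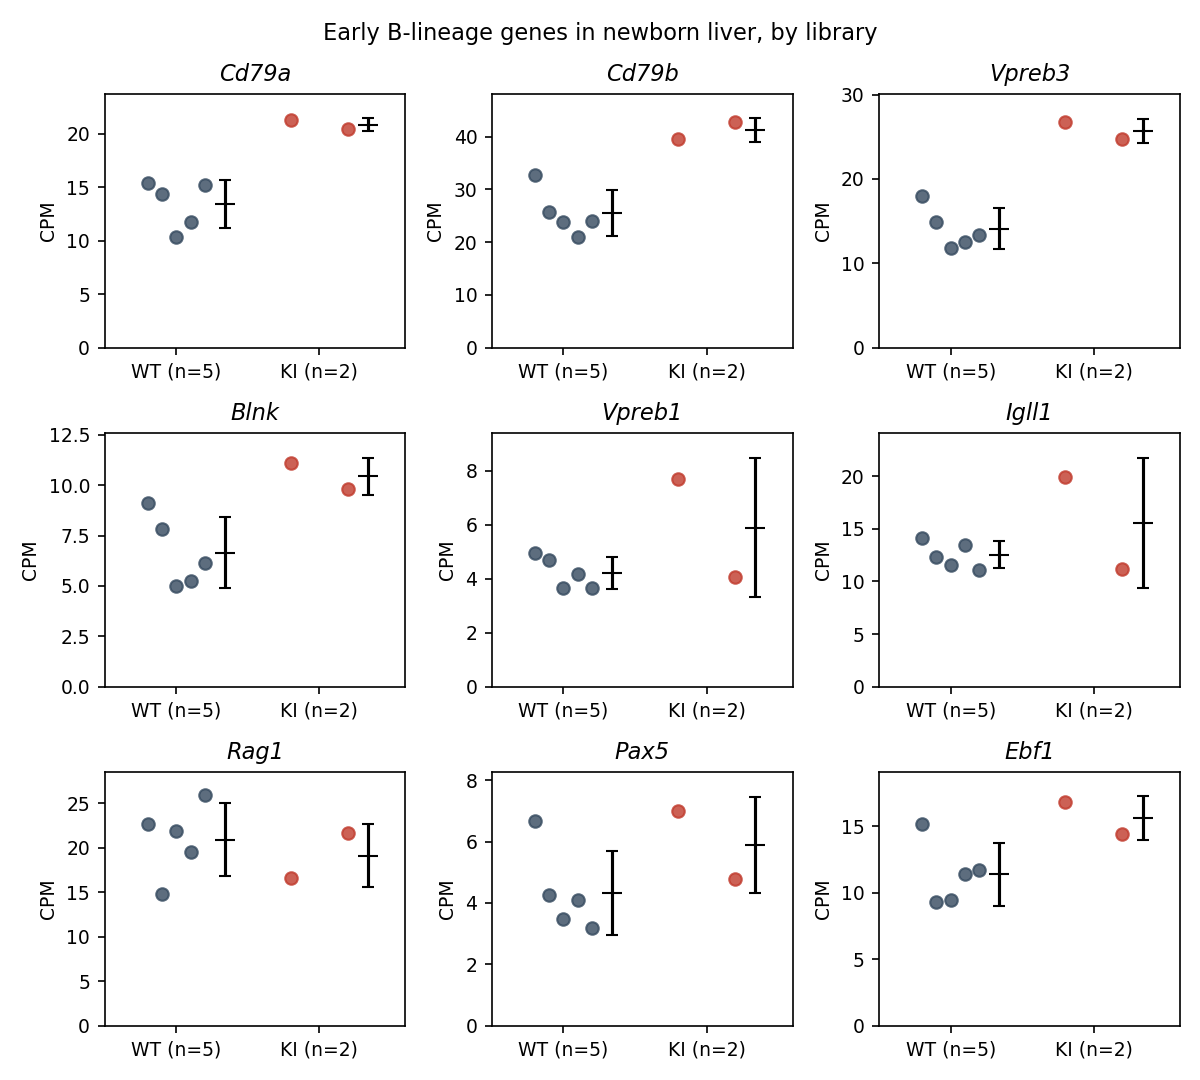
CPM of the 9 genes in the 5 WT and 2 KI livers, 1 point per library with the mean and SD beside each group, each axis starting at 0. The 2 KI livers lie above the WT livers for Cd79a, Cd79b, Vpreb3 and Blnk, KI 1 alone does so for Vpreb1, Igll1, Pax5 and Ebf1, and the groups of Rag1 overlap.

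Across the 9 genes, KI 1 was the highest liver for 7, KI 2 for Cd79b and WT 5 for Rag1. The calls needed both KI mice: without KI 1 and without KI 2, 0 of the 9 genes were called, with the log2 fold change of Vpreb3 at 0.80 and 0.92. With all 21 libraries in 1 fit, 0 of the 9 were called as well (edgeR adjusted p of 0.27 for Vpreb3). Without KI 1, 197 genes of 15383 were called as higher and 35 as lower, and without KI 2 these were 49 and 7 of 15335. Cd79a also missed the threshold without WT 1 and without WT 2 (edgeR adjusted p of 0.105 and 0.121).

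The 9 genes were then read against each other inside each liver, a description chosen after their values were seen and given with no test. Per read of Cd79a, the KI livers had 0.781 and 1.06 reads of Rag1, and the WT livers 1.02 to 2.11 (median 1.65). Vpreb3 gave 1.25 and 1.21 reads per read of Cd79a in the KI livers and 0.878 to 1.17 in the WT livers. Igll1 gave 0.547 to 0.936 in the KI livers and 0.728 to 1.14 in the WT livers. The ratio of Cd79b to Cd79a, the chains that pair in the receptor, was 1.86 to 2.09 in the KI livers and 1.59 to 2.30 in the WT livers. The ratio of Rag1 overlapped between the groups at its edge, that of Vpreb3 did not, and those of Igll1 and Cd79b did.

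In the brain, 6 of the 9 genes passed the filter on low counts, and 0 were called in KI against WT by edgeR, with 0 at an unadjusted p under 0.05 and 0 called by DESeq2. Of all 16322 genes tested in brain, 0% were called and 10.6% had an unadjusted p under 0.05. This count over all genes depended on the setting. DESeq2 called 80 higher and 524 lower, edgeR with the replicate number as a block 783 and 1382, and edgeR without WT 5 672 and 1026. Of the 9 genes, 0 were called in brain with any 1 mouse left out. The log2 fold changes of the 6 lay between -0.47 for Vpreb3 and 0.61 for Pax5. Ebf1, the most abundant of the 9 there, was at 63.5 and 64.3 CPM in the KI brains and 22.9 to 107 CPM in the WT brains. The WT brains spanned a wide range and enclosed both KI brains. Vpreb1, Igll1 and Cd79a, at 0 to 7 reads per brain library, did not pass the filter.

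In the skin, 5 of the 9 genes passed the filter and 0 were called by edgeR or DESeq2, with 1 at an unadjusted p under 0.05. Of all 16163 genes tested in skin, 0.0247% were called and 4.57% had an unadjusted p under 0.05. The 1 gene was Ebf1, at 122 and 127 CPM in the KI skins and 87.1 to 108 CPM in the WT skins, with a log2 fold change of 0.36 ± 0.12 (edgeR adjusted p = 0.97). Both KI skins lay above all WT skins, as they did for 3.98% of all genes. Cd79b had 3.45 and 4.31 CPM in the KI skins and 2.22 to 4.23 in the WT skins, which overlapped. Blnk ranged from 1.31 to 6.94 CPM between the 2 KI skins, wider than the WT range of 2.55 to 4.59. Vpreb1, Vpreb3, Igll1 and Pax5 had 0 to 9 reads per skin library and were not tested.

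Whether the KI effect in liver differed from that in the other tissues was tested directly as an interaction. For liver minus brain, 2.65% of 17420 genes were called and 0 of the 9 genes, with 2 of the 9 and 14.9% of all genes at an unadjusted p under 0.05. For liver minus skin, 0.0647% of 17014 genes were called and 0 of the 9 genes, with 2 of the 9 and 6.91% of all genes at an unadjusted p under 0.05. DESeq2 called 0 of the 9 in each. The difference for Vpreb3 was 1.31 ± 0.38 on the log2 scale against brain and 2.86 ± 0.67 against skin (edgeR adjusted p of 0.12 and 0.28), from 6 to 14 reads per brain library and 1 to 9 per skin library. Without WT 5, whose skin had 1 read of Vpreb3, the difference against skin was called (edgeR adjusted p = 0.032). For Cd79b the differences were 0.70 ± 0.44 and 0.37 ± 0.28, and for Cd79a 0.27 ± 0.60 and 0.90 ± 0.40. The data therefore do not show a KI difference particular to the liver for any of the 9.

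Other genes of early B-cell development were followed in a list of 28, all tested in the liver. Of these, 11 were called higher in the KI livers and 0 lower, where 3.89% and 1.68% of all genes tested in liver were. Over the 28, the median log2 fold change was 0.24 against -0.02 for all genes, and 18 lay above 0. At an unadjusted p under 0.05, 13 were higher and 2 lower, where 1421 and 1258 of all 14966 genes were. The 2 lower were Bcl11a at -0.52 and Sox4 at -0.44 (edgeR adjusted p of 0.22 for each), named here after their values were seen. The summed level of the 28 overlapped between the groups, at 1738 and 1749 CPM in the KI livers and 1450 to 2151 in the WT livers. Much of that sum was 1 gene, Cd24a, at 781 ± 15.2 CPM in KI (SD, n = 2) and 919 ± 195 in WT (n = 5), which was not called. The 11 included the inhibitory receptor gene Cd22, with 15.3 ± 1.05 CPM in KI (SD, n = 2) and 10.2 ± 0.948 in WT (n = 5), and another of this kind, Cd72. Their log2 fold changes were 0.57 and 0.81 (edgeR adjusted p of 0.049 and 0.048). Blk and Syk, kinases that act below the receptor, rose by 0.83 and 0.58 on the log2 scale (edgeR adjusted p of 0.040 and 0.017). Transcription factor and coactivator genes among them were Ikzf3 at 0.58, Irf8 at 0.56, Spib at 0.76 and Pou2af1 at 0.63 (edgeR adjusted p of 0.076, 0.064, 0.094 and 0.058). Bst1, a surface enzyme of cells within and outside the B lineage, had the largest rise of the list at 1.07 (edgeR adjusted p = 0.016). In brain 18 of the 28 were tested and in skin 24, with 0 called in each. At an unadjusted p under 0.05, 5 were higher and 0 lower in brain, where 457 and 1275 of all 16322 genes were. In skin 5 were higher and 1 lower, where 467 and 271 of all 16163 genes were. The median log2 fold changes of the genes of the list were 0.27 in brain and 0.31 in skin, against -0.02 and -0.03 for all genes. For Bst1, Syk, Irf8, Ikzf3 and Il7r both KI skins lay above all WT skins, as for 3.98% of all genes. The rest of the 11 overlapped in skin.

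The genes of V(D)J recombination were not among the 11. Rag2, the partner of Rag1, was at 3.26 and 1.42 CPM in KI 1 and KI 2 and 2.32 to 3.07 in the WT livers, a log2 fold change of -0.22 ± 0.32 (edgeR adjusted p = 0.77). KI 1 was the highest and KI 2 the lowest of the 7. Dntt, which adds bases at the joins and is known to be nearly off before birth, had 1 to 11 reads per liver library (edgeR adjusted p = 0.74). Without KI 1 the list of 28 had 2 calls, without KI 2 it had 0, and without WT 2 or WT 3 it had 7. With all 21 libraries in 1 fit it had 0.

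**Figure D3:**
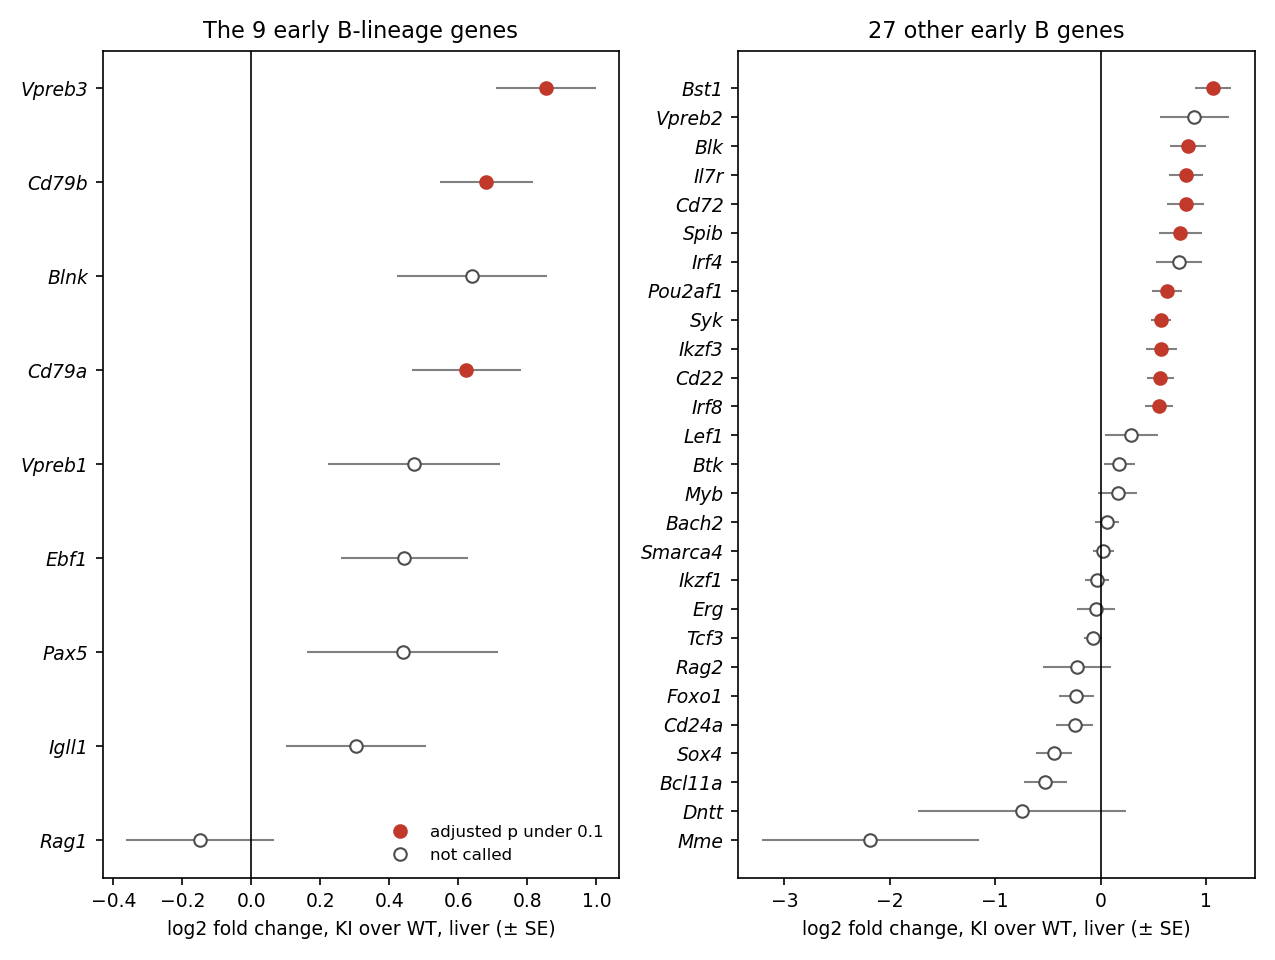
Log2 fold change of KI over WT in liver (x axis, ± SE) for the 9 genes (left) and 27 of the 28 other early B genes (right), with filled points for an adjusted p under 0.1. Filled points number 3 on the left and 10 on the right, all above 0, and Rag1 on the left is the 1 gene of the 9 below 0.

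Interleukin-7 signalling was read from 17 genes, of which 16 were tested in liver. Of these, 4 were called higher and 0 lower, where 3.89% and 1.68% of all genes were. The median log2 fold change of the 16 was 0.21. Il7r, the receptor chain specific to interleukin-7 and TSLP, was at 18.9 and 18.4 CPM in the KI livers and 8.80 to 14.3 CPM (median 9.99) in the WT livers. Its log2 fold change was 0.81 ± 0.16 (edgeR adjusted p = 0.034), and the groups did not overlap. Il2rg, the common gamma chain, rose by 0.85, Jak3, the kinase bound to it, by 0.64 and Crlf2, the TSLP receptor chain, by 0.62 on the log2 scale (edgeR adjusted p of 0.034, 0.050 and 0.057). Jak1 itself was at 204 ± 10.9 CPM in KI and 164 ± 13.1 in WT, with a log2 fold change of 0.30 (edgeR adjusted p = 0.13). The 2 KI livers were the highest of the 7 for Jak1, and it was called by DESeq2 (adjusted p = 0.042) and by edgeR without WT 4 (adjusted p = 0.085). The transcription factors Stat5a and Stat5b were at -0.06 and 0.18 (edgeR adjusted p of 0.87 and 0.56), and Il7, at 6 to 22 reads per library, was at 0.25 (edgeR adjusted p = 0.84). Without KI 1 and without KI 2, 0 of the 16 were called, and with all 21 libraries 1, which was Il2rg. Crlf2 also missed the threshold without WT 1 and without WT 3 (edgeR adjusted p of 0.10 in each). T, NK and other blood cells also use these receptor chains. Of 8 genes that mark or feed the niche of B precursors, Cxcl12 and Kitl among them, 0 were called by edgeR. At an unadjusted p under 0.05, 1 of the 8 was higher and 2 were lower. DESeq2 called 1 as lower, and so did edgeR without WT 4.

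Several lists of markers of other blood cells also differed between KI and WT livers, and their part in the result was not tested. Among all genes tested in liver, 3.89% were called higher and 1.68% lower. Of 9 neutrophil and myeloid precursor markers 4 were called higher, Ctsg, Prtn3, S100a8 and S100a9, and their summed level was 6489 and 7744 CPM in the KI livers and 4018 to 5267 in the WT livers. Of 7 macrophage markers 4 were called higher, Adgre1, Cd5l, Cd68 and Csf1r, with sums of 1107 and 936 CPM in KI and 585 to 829 in WT. T and NK cell markers summed to 64.5 and 69.8 CPM in KI and 32.1 to 47.6 in WT, with Gzma and Klrb1c called of 10 tested. Of the CD3 chain genes of T cells, Cd3e had at most 3 reads in any liver library. Cd3d was at 0.684 to 0.780 CPM in KI and 0.463 to 0.663 in WT, and Cd3g at 1.55 to 2.02 and 0.465 to 1.24. The KI and WT livers did not overlap for Cd3d or Cd3g, and neither gene was called. Plasmacytoid dendritic cell markers summed to 153 and 148 CPM in KI and 85.0 to 104 in WT, with Bst2 and Ly6d called of 5, and Siglech, the most specific of them, at 1.05 ± 0.0118 CPM in KI and 0.976 ± 0.490 in WT. The megakaryocyte markers overlapped, at 469 and 600 CPM in KI and 245 to 513 in WT, with Itga2b called higher of 5.

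Mature B and plasma cell markers differed widely in level. Cd37 was the highest in liver, at 32.2 ± 1.81 CPM in KI (SD, n = 2) and 23.3 ± 4.00 in WT (n = 5), and was not called. Of the 15 genes listed, the immunoglobulin genes Ighm, Ighd and Igkc were not among the counted symbols and could not be read. 8 of the 12 counted were tested, and all 8 had a log2 fold change above 0. H2-Aa and H2-Ab1 were called higher, as 3.89% of all genes were, and macrophages and dendritic cells use these genes as well. At an unadjusted p under 0.05, 5 of the 8 were higher, where 9.49% of all genes were. Fcer2a of mature B cells and Tnfrsf17 of plasma cells had at most 3 reads in any liver library, and Ms4a1 was not called, with a log2 fold change of 0.58 (edgeR adjusted p = 0.27). The sums were 86.3 and 95.7 CPM in KI and 48.5 to 68.5 in WT. Of 9 erythroid markers 3 were called lower, Hemgn and Rhag among them, where 1.68% of all genes were. The 9 erythroid markers summed to 2000 and 1950 CPM in KI and 2184 to 3215 in WT. The 6 hepatocyte markers summed to 147589 and 145887 CPM in KI and 149917 to 170021 in WT, with 0 called by edgeR in either direction. The 1 at an unadjusted p under 0.05, which was also the 1 called by DESeq2, was higher in KI: Fgb, a fibrinogen chain gene, with a log2 fold change of 0.34 (edgeR adjusted p = 0.17). Without KI 1, 2 of the marker calls were left, both in the neutrophil list, and without KI 2 there were 0. Of the macrophage calls 0 were left without WT 1 and 2 without WT 5. Neutrophil calls fell to 2 without WT 1 and without WT 2, plasmacytoid calls to 1 without WT 2 and erythroid calls to 1 without WT 3, and erythroid calls numbered 5 without WT 4. With all 21 libraries in 1 fit, 0 markers of these lists were called.

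**Figure D4:**
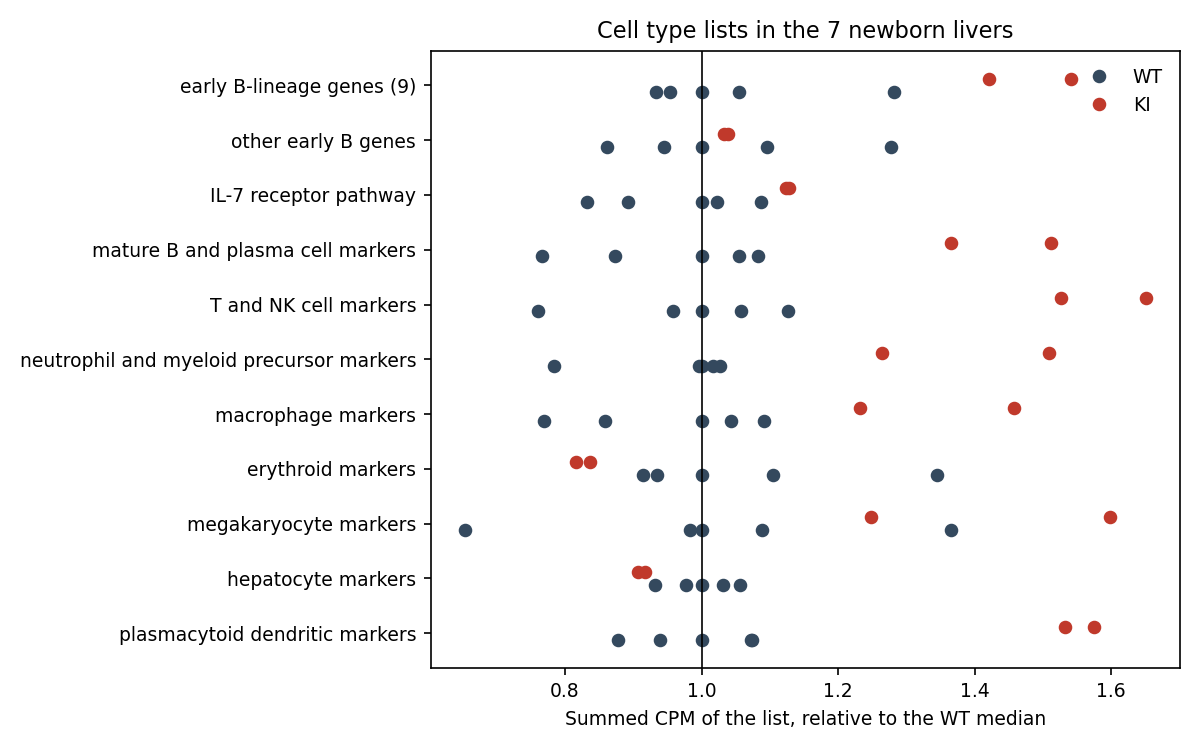
Summed CPM of each list of genes in the 7 livers, divided by the median of the 5 WT livers (x axis), 1 point per library. The KI points of the 9 early B-lineage genes lie right of all WT points, as do those of the interleukin-7, mature B, T and NK, neutrophil, macrophage and plasmacytoid lists, and those of the erythroid and hepatocyte lists lie left of all WT points.

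The genes whose level ran most like the mean of the 9 across the 7 livers were found among 13089 genes with a mean of at least 1 CPM. The measure was Pearson's r of log2 CPM over the 7 libraries, 2 KI and 5 WT, as a description. These libraries differ in genotype and depth, so r also holds the difference between KI and WT. The mean log2 CPM of the 9 was 4.02 and 3.76 in the KI livers and 3.20 to 3.74 in the WT livers. The 10 most alike were Rps26 (r = 0.980), Carkd (0.975), Rpl14 (0.971), Myl4 (0.969), Blk (0.967), BC048546 (0.966), Tor2a (0.964), Rps25 (0.962), Vps26a (0.962) and Il7r (0.960). Of these, Blk and Il7r belong to the list of 28 early B genes. Over the 5 WT livers alone, r was 0.924 for Blk and 0.970 for Il7r. Pou2af1 ranked 32 of the 13089 genes, whereas Rag2 ranked 7563, with an r of -0.01.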

How the data were processed

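Brain, liver and skin RNA of 2 Jak1 KI and 5 WT newborn mice was sequenced as 1 library for each tissue of each mouse. By the paper's methods the authors made libraries with a kit that does not mark strand, sequenced paired ends, trimmed adapters and aligned reads to mm9 with TopHat2, and the submitters' processing notes name HTSeq. For each library the authors deposited a table of raw counts by gene symbol, whose 5 summary lines were left out. Counts on genes were 80.5% to 87.6% of reads aligned to 1 place. The gene annotation is not given in the sources used here. Exon lengths and positions were taken from GENCODE M1.

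Low counts were removed (filterByExpr), libraries were scaled by TMM, and edgeR 4.0.16 (quasi-likelihood, R 4.3.3) was run over all genes of each comparison, with a Benjamini-Hochberg adjusted p under 0.1 as a call. KI and WT were compared within each tissue, WT liver with WT brain and skin, and the KI effect between tissues as an interaction. Python 3.11.15 with pandas 2.3.3, numpy 2.4.6 and matplotlib 3.10.9 made tables and figures. Log2 CPM used a prior count of 2. The genes named were the 9 genes, the called and 10 further genes of the early B and interleukin-7 lists, the 10 most like the mean of the 9, and called or leading marker genes. Genes such as Vpreb2, Cd3d, Cd3e, Cd3g, Siglech, Ms4a1, Fcer2a, Tnfrsf17, Cxcl12 and Kitl were singled out after their values were seen. Some genes of the lists were counted but are not reported by name here. The 9 genes and all lists were chosen with earlier results of these data known. Alternatives were DESeq2 1.42.0, its size factors, no TMM, no filter, an adjusted p of 0.05, the replicate number as a block, all 21 libraries and each mouse left out. Each fit was tested on simulated data with known changes.

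KI and WT mice share replicate numbers. Same-numbered KI and WT livers correlated across genes at r of -0.0269 and -0.0932 after group means were removed, so the number was not taken as a pairing. Libraries of 1 number and genotype were taken as 1 mouse, and Y-linked genes were alike in the 3 tissues for 7 of 7 mice. Same-numbered WT livers and brains correlated at r of 0.0454 to 0.155, and livers and skins at 0.0622 to 0.241.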

Additional observations from a re-analysis of the deposited data

Results flagged for a closer look

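Of 72 groups of 5 WT libraries examined for 1 library far from the rest, 3 stood out by Dixon's gap test, which chance alone passes in about 1 in 20. Cd79b in the brain of WT 5 was at 0.866 CPM, against 0.358 to 0.485 CPM in the other WT brains, from 23 reads against 12 to 15. Vpreb3 in the skin of WT 5 was at 0.0349 CPM, 1 read, against 0.258 to 0.278 CPM in the other WT skins. Igll1 in the brain of WT 1 was at 0.0307 CPM, which is 1 read, against 0 in the other WT brains. In the WT livers 0 of the 9 genes stood out in this way.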

How the results depend on the processing

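Across the settings tried, the direction and call of the 9 genes in liver against brain and liver against skin in WT changed under 0 alternatives, the block by mouse included. In KI against WT livers the count of 3 genes called was 0 with all 21 libraries in 1 fit, 4 with DESeq2 (Blnk, adjusted p = 0.092), 2 at an adjusted p of 0.05 and 0 to 3 with 1 mouse left out. With the replicate number as a block it was 2 (Cd79a at an adjusted p of 0.103), and the log2 fold change of Rag1 turned from -0.15 to 0.0885. The block also moved the 28 other early B genes from 11 called higher and 0 lower to 5 and 2, the interleukin-7 genes from 4 to 2, and the T and NK and the plasmacytoid markers from 2 to 1 each. The number is shared by KI and WT mice and marks no known pairing. With 1 KI mouse left out, the spread of the lone KI mouse is assumed to be that of the WT mice. With 1 mouse left out, log2 fold changes that changed sign ranged from -0.0595 to 0.87 for Vpreb1, -0.17 to 0.67 for Igll1, -0.34 to 0.0325 for Rag1, -0.94 to 0.27 for Rag2, -0.25 to 0.63 for Il7, -0.21 to 0.0889 for Stat5a and -0.0451 to 0.38 for Stat5b. The Cd79a difference of liver minus brain ranged from -0.16 to 0.92, and the count for liver minus skin from 0 to 1. The cause was not tested, beyond the smaller number of mice. Over all genes in liver, 582 higher and 251 lower calls became 848 and 641 with DESeq2, 156 and 86 with all 21 libraries, 302 and 81 at an adjusted p of 0.05, and 197 and 35 without KI 1. Counts of 0 to 17 reads in brain and skin limit what can be seen there for Cd79a, Vpreb1, Vpreb3 and Igll1.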
